A study of Homo sapiens with 18 samples.

Results

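Peaks of RNA polymerase II (Pol II) and of 2 phosphorylated forms of its C-terminal domain were followed at 9 feedback genes of the MAPK pathway: DUSP1, DUSP4, DUSP5, DUSP6, SPRY2, SPRY4, SPRED1, SPRED2 and PHLDA1. The 9 genes were taken as a given list, out of 19970 protein-coding RefSeq genes on chromosomes 1 to 22 and X. That list was chosen with earlier results of these data known. For each gene, every peak with its summit between 5 kb before and 5 kb past the gene was taken from every immunoprecipitated peak list. Chromatin immunoprecipitation followed by sequencing (ChIP-seq) had been done in HCT116 cells, a human colon cancer line. The line carries INTS11-AID, which is INTS11, the cutting subunit of the Integrator complex, fused to an auxin-inducible degron. IAA is the auxin that triggers loss of such a fusion protein. The antibodies were against Pol II, against the C-terminal domain phosphorylated at tyrosine 1 (Tyr1P), and against the domain phosphorylated at serine 2 (Ser2P). Control and IAA each had 2 numbered libraries per antibody, and a further 4 Pol II libraries carry no number: their titles are Control, IAA, EGF and IAA+EGF, and none has a replicate. There were also 2 input libraries. All libraries, Control included, are INTS11-AID cells, and the labels give 1 shared protocol: 14 h without serum, IAA at 500 µM over 1 h, EGF at 100 ng/µl over 30 min and interferon beta at 2000 U over 1 h. It leaves out which agents each library was given. The unnumbered library titled IAA has a file name that names EGF, and the library titled EGF has a file name that names IAA, so both names are given wherever these 2 libraries are used. Nothing in the labels says that numbered replicates came from separate cultures. The p-values below measure the spread between these libraries, pooled over genes in the fits, and that spread may be technical.

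Growth factors such as EGF switch on receptor tyrosine kinases, and the signal runs through RAS, RAF and MEK to the kinase ERK, a MAPK. ERK in turn raises the transcription of genes whose products damp the pathway. DUSP proteins of this group are phosphatases that remove phosphate from MAPKs, while Sprouty (SPRY) and Spred (SPRED) proteins act upstream, on the steps around RAS and RAF. Most of these genes are short and fast to respond, with Pol II often held near the start of the gene before it moves on. Integrator cuts the nascent RNA of Pol II near gene starts and ends transcription there. Ser2P is usually highest towards the 3′ end of a transcribed gene.

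The deposited lists give peaks, not reads. From a peak's fold enrichment and its p the number of fragments stacked at the summit, and the number that its surroundings lead one to expect there (the local background), were recovered in every list. A lead peak is the peak of best rank, by −log10 q, between 1 kb before and 1 kb past the gene. The start zone reaches 1 kb to either side of the gene start. The 3′ zone runs from 1 kb before the end of the gene to 5 kb past it. Estimated depth was between 2.94 and 13.6 fragments per kb, and the lists held 15420 to 99476 peaks. Ser2P was uneven: 37442 and 15420 peaks in Control against 99476 and 88987 with IAA. Of the 8 listed colon epithelial markers, 6 (EPCAM, KRT8, KRT18, CDH1, CLDN7 and ELF3) had a Pol II peak in all 4 numbered libraries, while VIL1 and CDX1 had none. Of 14 markers of other cell types, 8 had none in any of them and GAD1, SYT1 and COL1A1 had peaks in all 4.

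The 16 immunoprecipitated lists held 544 peaks in the 9 windows, 146 of them in the start zone, 132 in the 3′ zone, 208 elsewhere inside the gene and 58 upstream. Both input lists held 0. In the Pol II Control libraries the windows held 25 and 25 peaks, against 19 and 16 with IAA, a ratio of 0.70 ± 0.085 (SD propagated from the 2 libraries of each group). For Tyr1P the numbers were 29 and 29 in Control and 22 and 24 with IAA, a ratio of 0.793 ± 0.049. For Ser2P they were 42 and 18 in Control and 96 and 83 with IAA, a ratio of 2.98 ± 1.72. The groups did not overlap for any of the 3 antibodies, but 2 libraries against 2 cannot go below p = 0.33 in an exact two-sided permutation test. Whole lists also became shorter with IAA in Tyr1P, from 38821 and 37848 peaks to 33077 and 30461, and longer in Ser2P. In Pol II they held 22898 and 27929 peaks in Control and 18263 and 23609 with IAA. The same ratio over all genes was not taken, so the window ratios are not shown to be particular to these 9 genes. When all lists of an antibody were shortened to the same length, the ratios were 0.892, 0.957 and 1.5, each nearer to 1.

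By single gene, Pol II peaks were fewer in both IAA than in both Control libraries at 4 of the 9 genes (DUSP5, SPRY4, SPRED2 and PHLDA1), where 10.0% of all genes behaved so. They were more numerous at 2 of 9 (SPRY2 and SPRED1, both from 1 and 1 to 2 and 2), against 3.66% of all genes. Tyr1P peaks were fewer at 3 of 9 (DUSP5, SPRY4 and SPRED2; 12.4% of all genes) and more numerous at 0 of 9 (4.56%). Ser2P peaks were more numerous with IAA at 7 of 9 genes, all but DUSP6 and PHLDA1, beside 51.1% of all genes. They were fewer at 0 of 9, beside 0.436%. The exact p for each of these genes was 0.33, the smallest this design allows.

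All 9 genes had a Pol II peak at the start in both Control libraries, and it was the lead peak in both at all but PHLDA1, whose lead peak in replicate 2 lay 4947 bp past the start. A start zone peak was present in all 4 numbered Pol II libraries at 8 of 9 genes (49.7% of 15814 genes with a known strand). In Tyr1P it was present in all 4 libraries at 9 of 9 (58.5%), and in Ser2P at 2 of 9, DUSP1 and SPRED1 (41.1%). PHLDA1 was the exception in Pol II: its start peak was not called in IAA replicate 1. A start peak was gained with IAA at 0 of 9 genes and lost at 0 of 9 in Pol II (0.341% and 3.07% of all genes) and in Tyr1P (0.386% and 1.34%), and in Ser2P it was lost at 0 of 9 (0.266%).

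DUSP1 (chr5:172768096-172771195, minus strand, gene ID 1843), a nuclear phosphatase of MAPKs, had the best-ranked start peak of the 9 genes in both Pol II Control libraries. Its summit lay 28 and 35 bp past the start in Pol II Control, in the top 0.71% and 1.37% of the list, with 143 and 135 fragments and a fold enrichment (column 7) of 20.8 and 17.65. With IAA the summit lay 102 and 89 bp past the start, in the top 0.99% and 0.83%, with 120 and 198 fragments and a fold enrichment of 14.7 and 15.6. The Tyr1P summits lay at 29 and 35 bp in Control and at 89 and 115 bp with IAA. So the 2 groups did not overlap in position for either antibody. Over all genes a start summit farther downstream in both IAA libraries was common: 3 of 8 genes here (DUSP1, DUSP5 and SPRED2) against 47.5% for Pol II, and 5 of 9 (DUSP1, DUSP5, SPRED1, SPRED2 and PHLDA1) against 46.9% for Tyr1P. A second peak stood about 5.9 kb past the DUSP1 start, beyond its 3′ end. It had 26 and 37 Pol II fragments in Control and 23 and 35 with IAA, and it was present in all 12 Pol II and Tyr1P libraries. The pseudogene LOC401218 and the lncRNA LOC105377730 lie in the same window.

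The bases just upstream of a start show what sequence these Pol II summits sit beside. RefSeq (GRCh38.p14) promoter entries were found for 7 of the 9 genes, and for 6 of them the entry begins at the gene start used here; for SPRY4 it begins 774 bp farther in. DUSP4 and DUSP5 had no entry. The 250 bases before the start are printed for 4 genes: DUSP1 and PHLDA1, whose windows hold motifs, SPRED2, whose Pol II stack rose, and DUSP6, whose Ser2P peaks at the 2 ends changed order. Capitals mark matches, on either strand, to a TATA box (TATAAA), to the cyclic AMP response element (TGACGTCA) or its first part (TGACG), and to a core for ETS factors (CCGGAA).
DUSP1, chr5:172771196-172771445, minus strand: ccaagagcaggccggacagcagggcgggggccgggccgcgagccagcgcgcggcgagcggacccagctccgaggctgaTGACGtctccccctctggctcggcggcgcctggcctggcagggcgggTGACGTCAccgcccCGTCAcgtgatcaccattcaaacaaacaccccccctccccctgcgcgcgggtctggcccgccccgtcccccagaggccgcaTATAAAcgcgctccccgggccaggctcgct
DUSP6, chr12:89352502-89352751, minus strand: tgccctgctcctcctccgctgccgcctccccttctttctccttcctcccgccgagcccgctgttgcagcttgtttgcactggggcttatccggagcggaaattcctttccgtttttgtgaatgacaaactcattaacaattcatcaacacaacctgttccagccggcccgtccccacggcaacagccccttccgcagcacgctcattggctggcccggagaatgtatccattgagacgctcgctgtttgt
SPRED2, chr2:65432600-65432849, minus strand: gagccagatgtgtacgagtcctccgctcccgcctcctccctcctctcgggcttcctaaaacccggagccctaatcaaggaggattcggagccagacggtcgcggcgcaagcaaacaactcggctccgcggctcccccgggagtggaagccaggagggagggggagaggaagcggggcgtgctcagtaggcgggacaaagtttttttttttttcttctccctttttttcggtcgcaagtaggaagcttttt
PHLDA1, chr12:76031777-76032026, minus strand: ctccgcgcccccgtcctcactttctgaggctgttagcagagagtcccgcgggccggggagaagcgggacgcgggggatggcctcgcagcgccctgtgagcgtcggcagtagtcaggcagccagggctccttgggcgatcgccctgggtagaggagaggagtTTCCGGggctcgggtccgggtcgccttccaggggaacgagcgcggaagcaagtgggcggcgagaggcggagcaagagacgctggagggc
DUSP1 holds TATAAA 30 to 25 bases before its start and TGACGTCA 125 to 118 bases before it, and 2 of its 4 matches to TGACG lie inside that element, 1 on each strand. TATAAA occurs in 10.7% of 35116 windows of 250 bases before a RefSeq start, TGACGTCA in 1.65%, and TGACG in 21.2%. PHLDA1 holds CCGGAA, on the other strand, 89 to 84 bases before its start, and SPRY2 holds it 142 to 137 bases before its start, beside 14.5% of all windows. The GC box GGGCGG was found at 4 of the 6 genes read at their own start (DUSP1, SPRY2, SPRED1 and PHLDA1), beside 42.6%. The AP-1 motif TGANTCA was found at 0 of the 6 (6.57%), and the CArG box at 0 of the 6 (1.16%). DUSP6 and SPRED2 hold none of the 7 motifs in these 250 bases. Their GC content, 57.2% and 58.8%, is near the median of 58% over all windows, against 74.4% in DUSP1 and 78.4% in SPRED1.

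DUSP4 (chr8:29333064-29350684, gene ID 1846; minus strand from general knowledge, as the tables used give none), another nuclear MAPK phosphatase, had its start summit on the other side of the start with IAA. In Control the Pol II summit lay 38 and 34 bp past the start with 84 and 118 fragments. With IAA the best-ranked start peak lay at −393 and −347 bp, which is before the start, with 59 and 129 fragments. Replicate 1 had a second peak 86 bp past the start with 49. The Tyr1P summits lay 43 and 58 bp past the start in Control and at −361 and −369 bp with IAA, with 238 and 243 against 159 and 164 fragments. Thus both antibodies put the summit upstream of the gene in all 4 IAA libraries and inside it in all 4 Control libraries. A summit farther upstream in both IAA libraries was found at 3 of 8 genes for Pol II (DUSP4, DUSP6 and SPRED1; 23.5% of all genes) and at 1 of 9 for Tyr1P (DUSP4; 22%). The lncRNA LOC124901924 (chr8:29350974-29359629) lies just before the DUSP4 start, so peaks before the start cannot be assigned to 1 of the 2 transcripts.

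**Figure D1:**
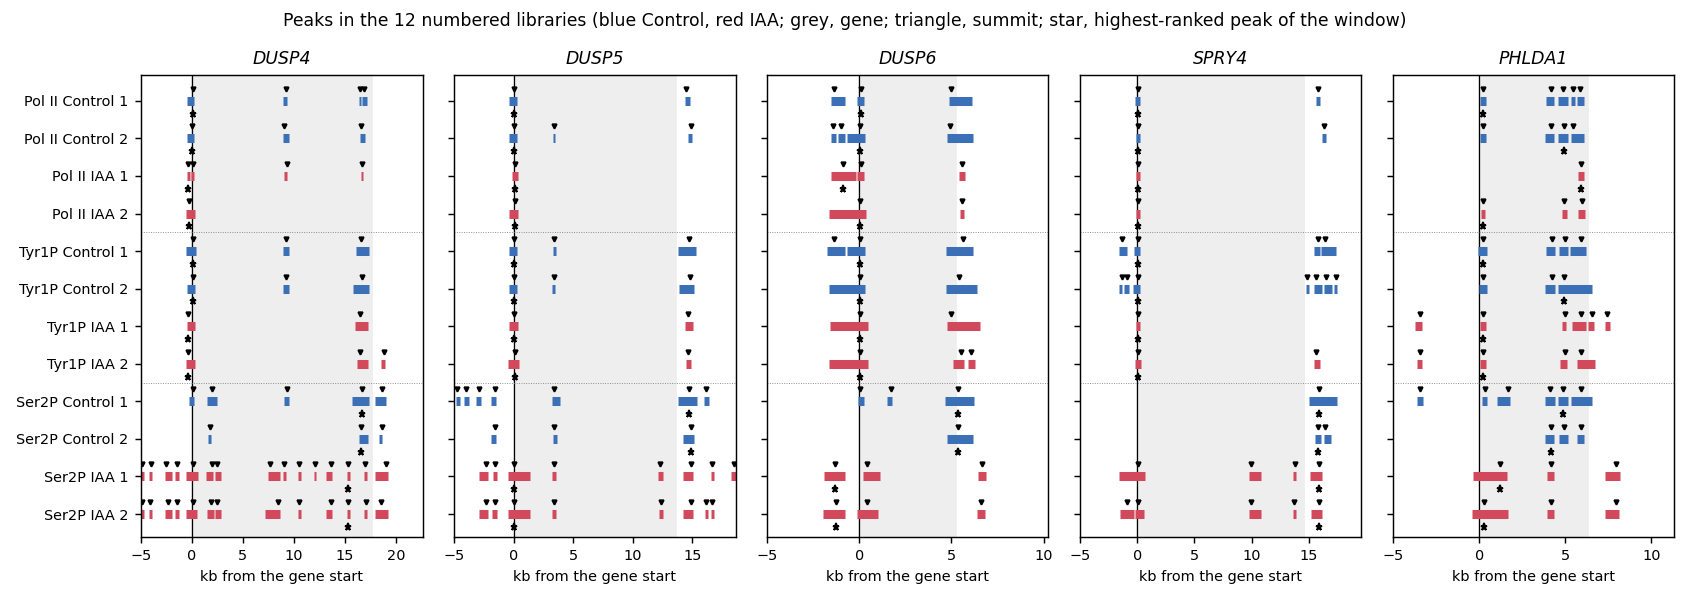
Peaks along DUSP4, DUSP5, DUSP6, SPRY4 and PHLDA1 in the 12 numbered libraries: the x axis is distance from the gene start in kb, each row is 1 library, bars are called peaks (blue Control, red IAA), triangles are summits and stars are the highest-ranked peak of the window. In both Ser2P Control libraries the star is in the 3′ part of every gene shown or past its end, and with IAA it is at the start of DUSP5 and upstream of DUSP6.

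At 5 of the 9 genes (DUSP4, DUSP5, DUSP6, SPRY4 and PHLDA1) the best-ranked Ser2P peak in Control lay towards or past the 3′ end, and at DUSP5, DUSP6 and PHLDA1 it lay nearer to the start or before it with IAA. DUSP6 (chr12:89347235-89352501, minus strand, gene ID 1848), a cytoplasmic phosphatase of ERK, is the shortest of them. In Ser2P Control its highest-ranked peak lay 5371 and 5374 bp past the start, just beyond the 3′ end, with 228 and 65 fragments, in the top 4.3% and 20.8% of the lists. With IAA the highest-ranked peak lay at −1327 and −1256 bp, before the start, with 163 and 221 fragments, in the top 4.21% and 2.42%. The peak past the 3′ end had by then its summit at 6663 and 6608 bp, with 67 and 63 fragments. So the highest-ranked peak was past the gene in both Control libraries and before it in both IAA libraries. Replicate 1 of Control had 1.87 times as many fragments in the 3′ zone as at the start, and the IAA libraries had 0.568 and 0.508 times as many. Control replicate 2 had no start peak to compare. POC1B-DUSP6, a readthrough transcript, overlaps DUSP6 on the same strand, and reads of the 2 genes cannot be told apart.

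DUSP5 (chr10:110497907-110511533, gene ID 1847; plus strand from general knowledge), a nuclear phosphatase specific for ERK, followed the same order. Its highest-ranked Ser2P peak was 14684 and 14849 bp past the start in Control, with 301 and 109 fragments, and 53 and 40 bp past the start with IAA, with 206 and 254 fragments. No Ser2P start peak was called in either Control library. DUSP5 and DUSP6 were the 2 genes, of 8 with a Ser2P peak in all 4 windows, whose best-ranked peak was in the 3′ zone in both Control and in neither IAA library, against 5.3% of all genes. At DUSP5 it was at the start in both IAA libraries and in neither Control library, 1 of 8 beside 6.31%. The change from 3′ zone to elsewhere was found at 0 of 9 genes in Pol II (1.38% of all genes) and in Tyr1P (1.03%). The opposite change was found at 0 of 9 in Pol II (1.35%), 0 of 9 in Tyr1P (1.27%) and 0 of 8 in Ser2P (1.33%). A best-ranked peak at the start in both IAA and in neither Control library was found at 0 of 9 in Pol II (2.12%) and 0 of 9 in Tyr1P (1.77%). At SPRY4 (chr5:142310430-142325021, minus strand, gene ID 81848), whose product restrains RAS signalling, the best-ranked Ser2P peak stayed past the 3′ end in all 4 libraries, at 15872 and 15756 bp in Control and at 15923 and 15917 bp with IAA. A start peak appeared there only with IAA, 71 and 92 bp past the start, with 140 and 147 fragments. A start peak was gained in this way at 2 of the 9 genes, DUSP5 and SPRY4, beside 6.51% of all genes. At PHLDA1 (chr12:76025447-76031776, minus strand, gene ID 22822), a gene for a pleckstrin homology domain protein, the best-ranked Ser2P peak lay 4887 and 4151 bp past the start in Control, with 358 and 196 fragments, and 1208 and 273 bp past it with IAA, with 144 and 168. At DUSP4 it lay 16631 and 16540 bp past the start in Control (248 and 89 fragments) and 15340 and 15337 bp with IAA (161 and 186 fragments).

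The local background around the 3′ zone peak gives a wider view than the summit, and it was lower with IAA at these genes. It is given in multiples of the genome-wide background of the library. For Ser2P at DUSP6 it was 22.1 and 22.05 in Control and 2.82 and 3.22 with IAA. At PHLDA1 it was 36.4 and 44.7 in Control, at a peak 5937 and 5916 bp past the start. With IAA it was 6.57 and 7.35, at another peak, 7914 bp past the start in both libraries. At DUSP5 it was 53.0 and 59.3 against 14.6 and 17.4, at SPRY4 28.8 and 31.0 against 8.16 and 9.18, and at DUSP4 25.6 and 23.2 against 11.4 and 15.5. No IAA value reached a Control value at any of the 5 genes, but the share of all genes that separate in this way was not counted. At SPRED1 it was 6.49 and 6.0 in Control and 5.73 and 6.62 with IAA, so the groups overlapped. With limma over 3711 genes (Benjamini-Hochberg adjusted), it fell at 5 of the 6 members with a 3′ zone peak in all 4 libraries, beside 34.5% of all genes that fell and 35.4% that rose. The log2 change, with its standard error and adjusted p by limma, was −2.88 ± 0.12 (7.6e-07) at DUSP6 and −2.54 ± 0.14 (1.14e-06) at PHLDA1. By the same limma fit it was −1.81 ± 0.13 (3.06e-06) at DUSP5, −1.79 ± 0.12 (2.14e-06) at SPRY4 and −0.88 ± 0.16 (0.000699) at DUSP4. SPRED1 gave −0.02 ± 0.13 (adjusted p 0.904). The DUSP4 call was lost without Control replicate 1 (limma adjusted p 0.0504) and without Control replicate 2 (0.0815). The 3 other genes lacked a 3′ zone peak in at least 1 library. The summit at which the background is read also moved: it was farther downstream in both IAA libraries at 5 of these 6 genes (DUSP5, DUSP6, SPRY4, SPRED1 and PHLDA1; 33.4% of all genes), and its part in the change was not tested. It was farther upstream at 0 of 6 (19.9%). In Pol II the 3′ zone summit was farther downstream with IAA at 3 of 3 (DUSP1, DUSP6 and PHLDA1; 36.3% of all genes) and farther upstream at 0 of 3 (29.7%). In Tyr1P it was farther downstream at 1 of 3 (DUSP1; 29.9%) and farther upstream at 1 of 3 (DUSP5; 22.4%).

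**Figure D2:**
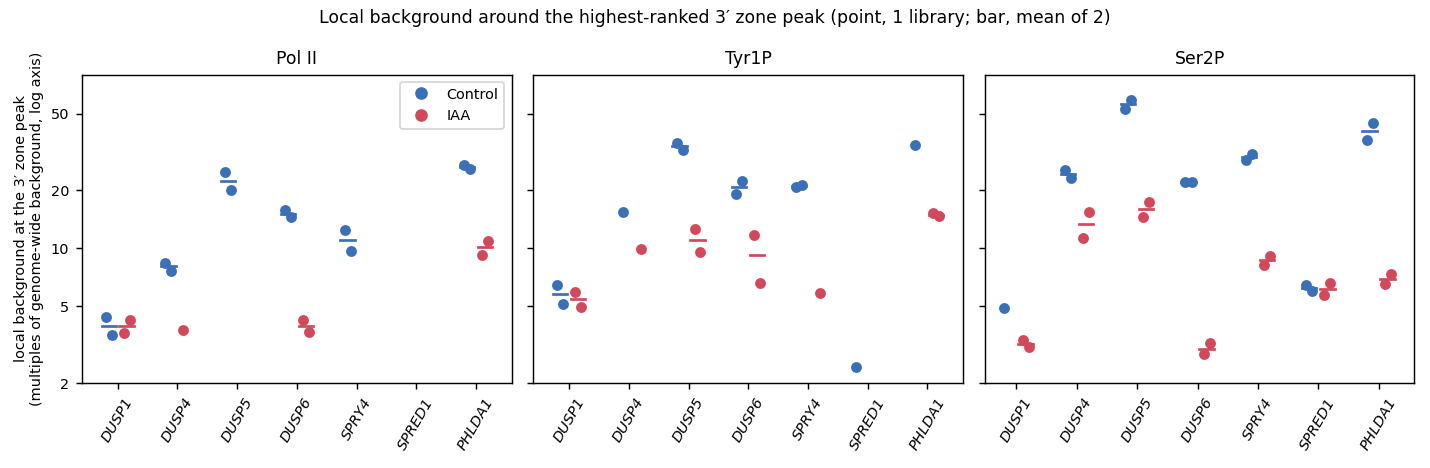
Local background at the best-ranked 3′ zone peak, in multiples of the library's genome-wide background on a log axis, for 7 genes and 3 antibodies; points are libraries (blue Control, red IAA) and short bars the mean of 2. For Ser2P the IAA points of DUSP4, DUSP5, DUSP6, SPRY4 and PHLDA1 all lie under their Control points, while those of SPRED1 overlap.

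The local background at the 3′ zone peak was lower with IAA in Pol II and Tyr1P at some of these genes too. For Pol II at DUSP6 it was 15.8 and 14.5 in Control and 4.23 and 3.70 with IAA. The summit at which it was read lay 4988 and 4911 bp past the start in Control and 5566 and 5583 bp with IAA. The part of such moves in the Pol II and Tyr1P changes was not tested. At PHLDA1 the local background was 27.0 and 25.8 in Control and 9.26 and 10.97 with IAA. It fell by limma at these 2 of the 3 members tested (19.2% of 1539 genes fell and 6.11% rose), by 1.94 ± 0.23 at DUSP6 (adjusted p 4.93e-14) and by 1.39 ± 0.23 at PHLDA1 (adjusted p 2.17e-07) on the log2 scale. The standard error was the same, 0.233, at all 3 members. These p-values therefore rest on 1 variance shared over genes, not on the spread of a single gene. At DUSP1 the local backgrounds were 4.39 and 3.55 in Control against 3.65 and 4.24 with IAA, which overlap. DUSP5 and SPRY4 had a Pol II peak in the 3′ zone in both Control libraries (36 and 46 fragments at DUSP5, 23 and 28 at SPRY4) and in neither IAA library. That is 2 of the 9 members, beside 2.17% of all genes, or 2 of the 6 with a Control peak there, beside 15.3%. With lists shortened to the same length, or with −log10 q of at least 5, 0 of the 9 members met this rule. The DUSP5 and SPRY4 peaks lost in this way were weak, in the top 80.7% to 92.2% of their lists.

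For Tyr1P the local background of the 3′ zone peak was 35.3 and 32.6 at DUSP5 in Control and 12.6 and 9.61 with IAA. At DUSP6 it was 19.1 and 22.5 against 11.8 and 6.61. It fell by 1.62 ± 0.15 at DUSP5 (adjusted p 0.00322) and by 1.23 ± 0.28 at DUSP6 (adjusted p 0.0191) on the log2 scale by limma, 2 of the 3 members tested, beside 43.0% of 2923 genes that fell and 12.1% that rose. Both calls were lost without IAA replicate 1 (limma adjusted p 0.0608 for each) and without IAA replicate 2 (0.0592 and 0.064). A Tyr1P peak in the 3′ zone was lost at 0 of 9 members (3.52% of all genes), or 0 of the 4 with one in both Control libraries (13.7%), and gained at 0 of 9 (0.664%). In Pol II it was gained at 0 of 9 (0.272%). In Ser2P it was lost at 0 of 9 (0.544%), or 0 of 6 (2.22%). The ratio of fragments in the 3′ zone to fragments at the start does not depend on depth. For Tyr1P at DUSP5 it was 0.39 and 0.329 in Control and 0.214 and 0.143 with IAA, at DUSP6 0.379 and 0.507 against 0.347 and 0.191, and at DUSP1 0.317 and 0.258 against 0.237 and 0.224. The ratio was lower in both IAA libraries at these 3 genes, the only members with a value in all 4 libraries, beside 23.5% of all genes lower and 48.7% higher. In Pol II it was lower at 1 of 2, DUSP6 (34.2%), with 0.396 and 0.564 in Control and 0.295 and 0.174 with IAA, and higher at 0 of 2 (34.9%). In Ser2P it was lower at 1 of 1, SPRED1 (68.3%), with 1.27 and 1.37 against 0.633 and 0.615, and higher at 0 of 1 (11.7%). Fewer cells with Pol II at a site and fewer Pol II per cell cannot be told apart in such bulk samples.

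The lead peak tells how strongly Pol II stood at its best-ranked place within 1 kb of the gene. Its fragments are given as multiples of the median gene of the same library. SPRED2 and PHLDA1 changed in opposite directions in both Pol II and Tyr1P. SPRED2 (chr2:65307175-65432599, minus strand, gene ID 200734), an inhibitor of RAS to RAF signalling, stood at 0.947 and 0.647 in Pol II Control and at 3.20 and 2.38 with IAA. In Tyr1P it stood at 0.633 and 0.492 in Control and at 1.82 and 1.76 with IAA. The lowest IAA library was above the highest Control library for both antibodies. PHLDA1 stood at 2.42 and 3.0 in Pol II Control against 1.33 and 0.958 with IAA, and at 1.87 and 2.08 against 1.08 and 1.28 in Tyr1P, again with no overlap. The share of all genes without overlap was not counted. The PHLDA1 lead peak was not at 1 place: it lay 209 and 4947 bp past the start in Pol II Control and 5937 and 233 bp with IAA. In Tyr1P it lay at 214 and 4939 bp against 219 and 236 bp. The SPRED2 value of Tyr1P Control replicate 2 was of the peak 1.9 kb past the start.

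With limma over 11415 genes, SPRED2 rose by 1.82 ± 0.23 on the log2 scale in Pol II (adjusted p 0.000234), 1 of the 9 members beside 24.3% of genes that rose. PHLDA1 changed by −1.25 ± 0.21 (adjusted p 0.00109), 1 of 9 beside 18.2% that fell. In Tyr1P, over 13648 genes, the limma changes were 1.68 ± 0.15 at SPRED2 (adjusted p 0.00339) and −0.74 ± 0.13 at PHLDA1 (adjusted p 0.00884). The median log2 change of all genes was 0.04 in Pol II, 0.07 in Tyr1P and −0.05 in Ser2P. Divided by estimated depth instead of the median gene, it was −0.78, −0.80 and 0.92, so every change here is relative to the median gene. SPRED2 and PHLDA1 kept their direction and call under depth scaling: 1.00 and −2.07 in Pol II, and 0.81 and −1.61 in Tyr1P. Over all genes that scaling called 192 higher and 5995 lower of 11415 in Pol II. In Tyr1P it called 149 higher and 11136 lower of 13648. A lower call, as at PHLDA1, was thus common under depth scaling. The Pol II call of PHLDA1 was lost without Control replicate 2 (limma adjusted p 0.0574).

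The median change of the 9 members was 0.13 for Pol II, beside 0.04 over all genes, and 0.15 for Tyr1P, beside 0.07. In Tyr1P, 3 of 9 members rose (24.1% of all genes) and 1 of 9 fell (13.1%). The other 2 that rose, DUSP1 by 0.47 ± 0.11 (limma adjusted p 0.0197) and DUSP5 by 0.46 ± 0.13 (limma adjusted p 0.0321), turned to −0.41 and −0.41 under depth scaling. Without Control replicate 1, and likewise without Control replicate 2, limma called 0 of all genes in Tyr1P, with 4039 and 3993 genes at an unadjusted p under 0.05. The adjusted p of SPRED2 was then 0.14 and 0.149, that of PHLDA1 0.143 and 0.164, that of DUSP1 0.155 and 0.161, and that of DUSP5 0.216 and 0.239. The calls of DUSP1 (0.0542) and DUSP5 (0.0926) were lost without IAA replicate 2 as well. The other 7 members were not called in Pol II: their log2 changes ran from −0.38 at SPRY2 to 0.36 at DUSP1.

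**Figure D3:**
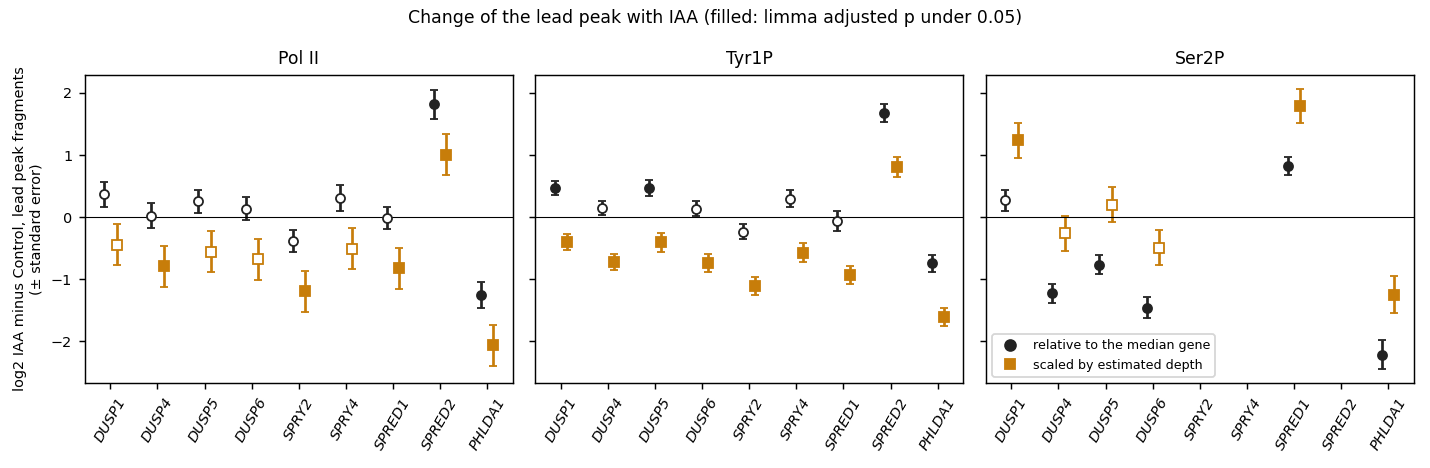
Fitted log2 change of lead peak fragments with IAA for the 9 genes and 3 antibodies, with its standard error; circles are relative to the median gene, squares scaled by estimated depth, and filled symbols passed limma at an adjusted p under 0.05. SPRED2 lies above 0 and PHLDA1 below 0 under both scalings in Pol II and Tyr1P, while most other members change side with the scaling.

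In Ser2P the lead peak was tested at 6 of the 9 genes, since SPRY2, SPRY4 and SPRED2 lacked a peak within 1 kb of the gene in at least 1 Control library. In multiples of the median gene, PHLDA1 stood at 5.11 and 8.17 in Control and at 1.37 and 1.41 with IAA. DUSP4 stood at 3.54 and 3.71 against 1.53 and 1.56, DUSP6 at 3.26 and 2.71 against 1.12 and 1.04, and DUSP5 at 3.46 and 3.5 against 1.96 and 2.13. SPRED1 stood at 0.80 and 0.792 in Control and at 1.40 and 1.42 with IAA. Control and IAA did not overlap at any of these 5 genes, but the share of all genes without overlap was not counted. The lead peak was not at 1 place in both groups: at DUSP5 it was the peak 3.4 kb past the start in Control and the start peak with IAA, and at DUSP6 the peak past the 3′ end in Control and the start peak with IAA. The changes below are therefore of the best-ranked peak within 1 kb of the gene, not of 1 position. At DUSP5 this limit left out the best-ranked Control peaks of the window, at 14684 and 14849 bp with 301 and 109 fragments. At DUSP6 it left out the best-ranked IAA peaks, at −1327 and −1256 bp with 163 and 221 fragments. The DUSP6 start peaks used instead had 118 and 124. By limma over 10351 genes the log2 change was −2.22 ± 0.23 at PHLDA1 (adjusted p 0.00225), −1.23 ± 0.15 at DUSP4 (0.00353), −1.46 ± 0.17 at DUSP6 (0.00289), −0.77 ± 0.15 at DUSP5 (0.0159) and 0.82 ± 0.15 at SPRED1 (0.0117). These are 4 members that fell, beside 13.1% of all genes, and 1 that rose, beside 7.17%. Under depth scaling PHLDA1 (−1.25) and SPRED1 (1.79) were still called, DUSP4 (−0.26) and DUSP6 (−0.49) were not, and DUSP5 turned to 0.20. Over all genes that scaling called 7717 higher and 107 lower of 10351, so a higher call, as at SPRED1, was common. The DUSP5 call was also lost without IAA replicate 1 (adjusted p 0.152) or 2 (0.0918), and that of SPRED1 likewise (0.083 and 0.096).

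SPRED1 and SPRED2 are the 2 long genes of the group, at 104.4 kb and 125.4 kb, and Ser2P peaks were spread through their interiors with IAA. SPRED1 (chr15:38252836-38357249, plus strand, gene ID 161742), which recruits neurofibromin to restrain RAS, had 11 and 4 Ser2P peaks in Control and 25 and 21 with IAA. Those with the summit more than 1 kb inside both ends numbered 5 and 0 in Control and 20 and 17 with IAA. SPRED2 had 5 and 1 Ser2P peaks in Control and 29 and 22 with IAA, of which 3 and 0 against 27 and 19 were interior. The peaks of the 2 IAA libraries lay mostly in the same places. At SPRED1, 22 of the 25 peaks of replicate 1 shared at least 1 bp with a peak of replicate 2, and at SPRED2 19 of the 29 did. The interior peaks reached 102.3 kb from the start of SPRED1 and 124.4 kb from the start of SPRED2. They were mostly small: the median peak of the window had 22 and 27 fragments at SPRED1 and 19 and 26.5 at SPRED2.

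Among the 3351 genes of at least 100 kb, 60.1% had more interior Ser2P peaks in both IAA than in both Control libraries, as both SPRED genes did. The median number of interior peaks of these long genes was 0 and 0 in Control and 3 and 3 with IAA. SPRED1 had more than 87.9% and 87.2% of them in the IAA libraries, and SPRED2 more than 93.2% and 89.5%. In Control replicate 1 they had more than 93.3% and 82.8%, so SPRED1 ranked no higher among long genes with IAA than in that library; in Control replicate 2 both had 0 interior peaks. Pol II did not show the same filling. Its interior peaks numbered 0 in all 4 numbered libraries at SPRED1, and at SPRED2 2 and 2 in Control and 2 and 1 with IAA. Tyr1P interior peaks numbered 0 and 0 against 1 and 1 at SPRED1, and 4 and 4 against 1 and 2 at SPRED2. An interior peak was gained with IAA in Tyr1P at 1 of 9 members, SPRED1 (0.908% of all genes), in different places of the 2 libraries, 67.0 and 76.3 kb from the start. An interior Tyr1P peak was lost at 1 of 9, DUSP5 (3.18%), whose peak 3.4 kb past the start had 109 and 88 fragments in Control. In Ser2P an interior peak was gained at 1 of 9, SPRY4 (19.7%), 9967 and 9971 bp past the start. An interior peak was gained at 0 of 9 and lost at 0 of 9 in Pol II (0.742% and 2.7%), and lost at 0 of 9 in Ser2P (0.155%). More interior peaks in both IAA libraries were found at 0 of the 2 SPRED genes in Pol II (2.42% of the long genes) and at 1 of 2, SPRED1, in Tyr1P (2.39%).

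**Figure D4:**
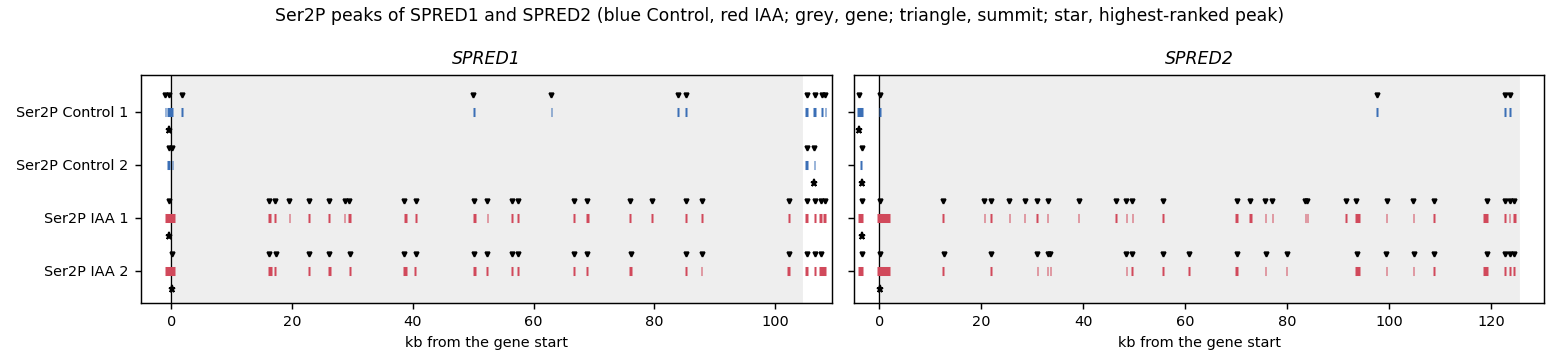
Ser2P peaks along SPRED1 and SPRED2 in the 4 Ser2P libraries: the x axis is distance from the gene start in kb, bars are called peaks (blue Control, red IAA), triangles summits and stars the highest-ranked peak of the window. The IAA libraries hold 25 and 21 peaks at SPRED1 and 29 and 22 at SPRED2, against 11 and 4 and 5 and 1 in Control.

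SPRED2 carried its added Pol II at 2 places near the start. At 103 and 105 bp past the start the Control libraries had 36 and 33 fragments, and at 124 and 128 bp the IAA libraries had 96 and 114. At about 1.9 kb past the start the Control libraries had 19 and 20 fragments and the IAA libraries 53 and 93. Another place, 3.4 kb before the start, had 20 and 30 Pol II fragments in Control and no called peak with IAA. In Tyr1P the same 3 places read 76 and 73, 48 and 61, and 72 and 81 fragments in Control, and 135 and 130, 115 and 119, and 61 and 42 with IAA. So both antibodies had higher stacks at and past the start. Before it the Tyr1P stacks had fewer fragments with IAA, but the median gene did too (120 and 124 in Control against 74 and 74). The local background at the start peak rose with IAA at SPRED2 in Pol II by 0.99 ± 0.24 (limma adjusted p 0.0016). The standard error was the same, 0.238, at all 8 members tested, from 1 variance shared over genes. SPRED2 was the 1 of 8 called higher, beside 2.71% of 7866 genes, while 0 of 8 fell, beside 8.59%. That call was lost with the replicate number as a block (adjusted p 0.0644) and without Control replicate 2 (0.248). In Tyr1P it rose at 3 of 9 (DUSP4, SPRED1 and SPRED2, by 0.31, 0.46 and 0.48; 7.64% of all genes) and fell at 4 of 9 (PHLDA1 by 1.46, SPRY4 by 0.70, DUSP5 by 0.67 and DUSP6 by 0.58; 48.4%), all by limma. The DUSP4 call was lost without Control replicate 1 (limma adjusted p 0.083) or IAA replicate 2 (0.082). In Ser2P the 2 members with values in all libraries rose, SPRED1 by 1.59 and DUSP1 by 0.59, beside 59.0% of all genes that rose and 10.6% that fell, and centring on the median gene took DUSP1 to 0.20 (limma adjusted p 0.136).

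SPRY2 (chr13:80335976-80341126, minus strand, gene ID 10253), a Sprouty protein that restrains receptor tyrosine kinase signalling, had some of the smallest stacks of the 9 genes. Its Pol II lead peak held 25 and 33 fragments in Control and 15 and 24 with IAA, or 0.658 and 0.647 against 0.50 and 0.50 times the median gene. The log2 change of −0.38 ± 0.18 was not called in Pol II (limma adjusted p 0.107). A second Pol II peak, at −1781 and −1759 bp with 16 and 32 fragments, was called only with IAA. Tyr1P had a peak there in all 4 libraries, with 26 and 26 fragments in Control and 33 and 34 with IAA. SPRY2 had 2 and 0 Ser2P peaks in Control and 6 and 5 with IAA, and it was the 1 member of 9 that gained a Ser2P peak in the 3′ zone (11.2% of all genes). At SPRED1 the Pol II start peak lay at −451 and −457 bp from the annotated start in Control, with 43 and 61 fragments. With IAA there were 2 peaks on either side of the start: at −554 and −705 bp with 33 and 58 fragments, and at 472 and 615 bp with 32 and 31. PHLDA1 had Pol II peaks near both ends in Control, and of its neighbours the lncRNAs PHLDA1-AS1 and PHLDA1-DT and the gene NAP1L1 share the window. SPRY4-IT1, SPRY4-AS1 and DUSP5-DT share those of SPRY4 and DUSP5.

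The 4 unnumbered Pol II libraries have 1 library each, so no test or replicate spread applies to them. In multiples of the median gene, the lead peak of SPRED2 stood at 0.653 in the library titled Control, 0.667 in that titled IAA (file name EGF), 1.47 in that titled EGF (file name IAA) and 1.68 in that titled IAA+EGF. PHLDA1 stood at 2.85, 2.71, 2.42 and 2.16 in the same order. DUSP5 stood at 2.44, 2.78, 3.03 and 3.395, DUSP1 at 2.98, 3.07, 3.34 and 3.72, and SPRY4 at 2.03, 2.2, 2.42 and 2.76. SPRED2 was at least 1.5-fold higher than in Control in the libraries titled EGF and IAA+EGF, 1 of 9 members in each, beside 7.05% and 7.7% of 13412 genes. In the library titled IAA 0 of 9 were at least 1.5-fold higher (0.85% of genes). At least 1.5-fold lower were 0 of 9 in all 3 libraries, beside 3.47% (titled EGF), 3.31% (titled IAA) and 5.75% (titled IAA+EGF) of all genes. The SPRED2 lead peak was not in 1 place in these libraries: it lay 99 bp past the start in that titled Control, and 1860, 1899 and 1896 bp past it in those titled IAA, EGF and IAA+EGF. At the start itself SPRED2 had 66, 71, 64 and 76 fragments, so the library titled EGF was not 1.5-fold higher there relative to the median gene.

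Other places along the genes were read in the same 4 libraries. The DUSP1 start summit lay at 33 bp in the library titled Control, 35 bp in that titled IAA, 71 bp in that titled EGF and 87 bp in that titled IAA+EGF. The local background of the DUSP6 3′ zone peak was 28.2, 38.2, 13.9 and 13.9 in that order, and that of PHLDA1 was 42.4, 43.0, 18.7 and 17.2. The DUSP6 ratio of 3′ zone to start fragments was 0.529, 0.50, 0.271 and 0.275. SPRY4 had peaks in the 3′ zone in the libraries titled Control, IAA and IAA+EGF and none in that titled EGF. DUSP5 had 83, 53 and 51 fragments at its best 3′ zone peak in the same 3 libraries, and none was called in that titled EGF. For the DUSP1 start summit and the DUSP6 and PHLDA1 readings, the library titled IAA (file name EGF) lay nearer to that titled Control than to that titled IAA+EGF. The library titled EGF (file name IAA) lay nearer to that titled IAA+EGF. The local background of the DUSP1 3′ zone peak did not divide the libraries so. It was 4.86, 8.97, 5.97 and 7.09 in those titled Control, IAA, EGF and IAA+EGF. DUSP5 and SPRY4 did not divide the libraries in this way by whether a 3′ zone peak was called, nor did DUSP5 by its fragments. The local background at that peak was 20.1, 19.0 and 10.1 at DUSP5 in the libraries titled Control, IAA and IAA+EGF. At SPRY4 it was 21.4, 17.5 and 7.04. By this measure the library titled IAA lay nearer to that titled Control at both genes, and that titled EGF has no value. Which of the 2 names is right was not tested. At DUSP4 the start summit lay past the start in all 4 libraries, at 44, 51, 55 and 59 bp.

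**Figure D5:**
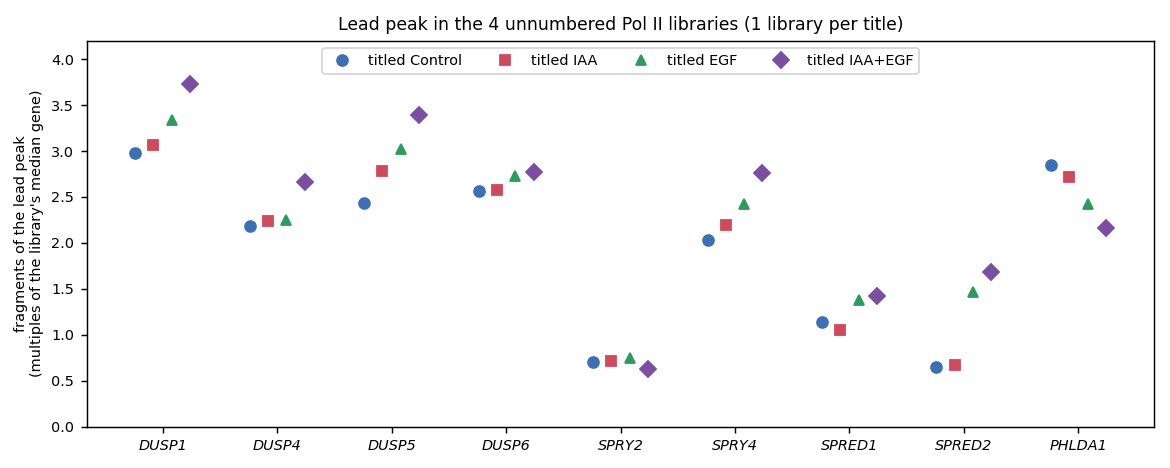
Lead peak fragments in the 4 unnumbered Pol II libraries, in multiples of the median gene of each library, for the 9 genes; each symbol is 1 library, named by its title (the file name of the library titled IAA names EGF, and that of the library titled EGF names IAA). SPRED2 is at 0.653 and 0.667 in the libraries titled Control and IAA and at 1.47 and 1.68 in those titled EGF and IAA+EGF.

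Other genes of the pathway were read in the same fits, in which 24.3% of all genes were higher and 18.2% lower in Pol II, 24.1% and 13.1% in Tyr1P, and 7.17% and 13.1% in Ser2P. Of 21 other feedback regulators, 18 had a Pol II lead peak in all 4 libraries: 1 rose (DUSP8) and 5 fell, with a median log2 change of −0.26 beside 0.04 over all genes. The 5 were ERRFI1 (−2.16 ± 0.22), an inhibitor of the EGF receptor, ZFP36 (−1.03 ± 0.18), an RNA decay factor, DUSP7, LRIG1 and TRIB1. Under depth scaling these 5 stayed lower and DUSP8 went from 0.87 to 0.06. Over all genes, 5995 of 11415 were called lower in Pol II under that scaling. In Tyr1P 21 were tested, with 2 higher (DUSP8 and PHLDA2) and 3 lower (ERRFI1, SPRED3 and DUSP3), a median of −0.06 beside 0.07; PHLDA2 turned from 0.48 to −0.39 under depth scaling. In Ser2P 17 were tested, with 1 higher (DUSP16) and 3 lower (ERRFI1, SPRED3 and ZFP36), a median of 0.02 beside −0.05. Under depth scaling none of these 3 lower calls held there: ERRFI1 went from −0.92 to 0.05, SPRED3 from −1.10 to −0.14 and ZFP36 from −1.11 to −0.14.

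Of 25 genes of the ERK cascade itself, 23 were tested in Pol II, with 4 higher and 6 lower and a median of −0.17. BRAF (1.10), SOS1 (0.94), ARAF (0.86) and GAB1 (0.59) were higher, of which GAB1 turned to −0.22 under depth scaling and the others were no longer called (0.29, 0.13 and 0.05), and the receptors EGFR (−0.77) and ERBB2 (−0.64) were among the lower. In Tyr1P 24 were tested, with 6 higher and 8 lower and a median of −0.02; of the higher, ARAF went from 1.06 to 0.19 under depth scaling, no longer called, and BRAF turned from 0.79 to −0.08. In Ser2P 24 were tested, with 2 higher (SOS1 and ERBB2) and 1 lower (NRAS) and a median of −0.14. Of 16 ERK output genes, 13 were tested in Pol II, with 3 higher (EPHA4, and HBEGF and FOSL1, which were not called under depth scaling) and 2 lower (ETV5 and HMGA2) and a median of 0.12. In Tyr1P 15 were tested, with 4 higher (EPHA4, LIF, HBEGF and PLAUR) and 2 lower (HMGA2 and ETV5) and a median of 0.28. Under depth scaling LIF (0.15) and HBEGF (0.04) were no longer called and PLAUR turned from 0.51 to −0.36. In Ser2P 12 were tested, with 1 higher (HBEGF) and 5 lower (HMGA2, TNFRSF12A, ETV4, EPHA2 and CCND1) and a median of −0.58 beside −0.05 over all genes. None of those 5 calls held under depth scaling: ETV4, EPHA2 and CCND1 turned to 0.26, 0.36 and 0.17, and HMGA2 (−0.57) and TNFRSF12A (−0.13) were no longer called.

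Over the 8 Pol II libraries the members did not share 1 profile. Pearson's r of a gene's centred log2 lead peak was taken with the mean of the 9 members, which includes the gene itself and so pulls r upward. It ran from −0.73 at PHLDA1 and −0.60 at SPRY2 to 0.86 at DUSP1 and 0.89 at SPRED2. The highest pairwise r was 0.89, between SPRY2 and PHLDA1, followed by 0.85 between SPRED2 and DUSP1, and the lowest was −0.89, between SPRED2 and PHLDA1. Among 11346 genes with a peak in all 8 libraries, the 5 closest to the member mean were PRDX6 (r = 0.98), ATF7IP2 (0.98), WLS (0.98), NCEH1 (0.97) and DNAH6 (0.97). These are descriptions over 8 libraries that differ in treatment and depth.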

How the data were processed

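Peak lists of 18 ChIP-seq libraries were analysed: 16 immunoprecipitated and 2 input. The submitters' processing notes name MACS2 2.2.7.1, the peak caller, Bowtie2 2.3.4.1, Trim Galore 0.6.6, deepTools 3.5.1, Picard 2.25.7 and build hg38. Each sample has its own list; of the caller's options and control nothing is stated in the labels. In each list the authors deposited, for each peak, a score, the fold enrichment (a ratio), −log10 p and −log10 q, and the summit offset. The depth of a library is not in the lists and was estimated. From fold and p, the fragments at the summit and the local background were solved for 100% of peaks (relative tolerance 0.0002). The genome-wide background is the lowest local background shared by at least 5 peaks.

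Gene positions are RefSeq GRCh38.p14; the strands of DUSP4 and DUSP5, absent from the tables used, came from general knowledge. Log2 lead peak fragments, centred on the median gene, and local backgrounds were fitted with limma 3.58.1 (R 4.3.3) over all genes with a peak in all 4 libraries of an antibody, with Benjamini-Hochberg adjustment and a threshold of 0.05; the local backgrounds were added after seeing the data. Python 3.11.15, numpy 2.4.6, pandas 2.3.3 and scipy 1.17.1 did the rest, and the steps were tested on simulated data. The members and gene lists were chosen with earlier results of these data known. Of the listed pathway genes, at most 6 called genes per list and comparison were named, in order of adjusted p-value, and the 5 genes most like the members by Pearson's r. Alternatives were another depth scaling, stricter and equal-length lists, other windows and overlaps, removal of peaks that overlap input peaks, the replicate block and leaving out each library. Libraries were grouped by title.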

Additional observations from a re-analysis of the deposited data

Results flagged for a closer look

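At 3 genes the number of peaks in the window moved in opposite directions for 2 antibodies, with every library of each antibody on its own side. The differences themselves were not tested, and the share of all genes that moved in this way was not counted. Taken singly, 51.1% of all genes had more Ser2P peaks in both IAA libraries. Fewer peaks were found at 10.0% in Pol II and 12.4% in Tyr1P. At DUSP5 the mean number of peaks per library changed by 4.5 more for Ser2P than for Pol II, and by 4.0 more than for Tyr1P. At SPRY4 the differences were 4.0 and 7.0. At SPRED2 they were 24.5 and 25.0. Both Ser2P lists were also longer with IAA than either was in Control, and both Tyr1P lists were shorter; the part of list length in these differences was not tested.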

How the results depend on the processing

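The ratio of window peaks, IAA over Control, was 0.892 for Pol II (0.7 as reported) and 0.957 for Tyr1P (0.793) with lists of equal length. For Pol II, with −log10 q of at least 5 and with equal lists, 1 and 1 members lost an interior peak (0 as reported) and 0 and 0 lost every 3′ zone peak (2); with zones of 500 bp 1 gained a 3′ zone peak (0). With −log10 q of at least 5, 0 members gained an interior Tyr1P peak (1), 1 lost its Tyr1P 3′ zone peaks (0), and 2 gained a Ser2P 3′ zone peak (1), as 2 did with any overlap. Scaled by depth, limma called 5 members in Pol II (2), 9 in Tyr1P (4) and 3 in Ser2P (5) on the lead peak. Over all genes that scaling called 192 higher and 5995 lower of 11415 in Pol II. In Tyr1P it called 149 higher and 11136 lower of 13648, and in Ser2P 7717 higher and 107 lower of 10351. The lead peak change of DUSP1 in Tyr1P was then −0.406, of DUSP5 in Tyr1P −0.407 and of DUSP5 in Ser2P 0.200. With start peaks alone limma called 1 member in Pol II and 1 in Ser2P. Over all genes it then called 2017 higher and 1469 lower of 7866 in Pol II, and 454 higher and 701 lower of 6502 in Ser2P. Centred on the median gene, start backgrounds called 3 members in Pol II (1) and 1 in Ser2P (2). Over all genes they called 1774 higher and 1547 lower of 7866 in Pol II, and 1864 higher and 1995 lower of 6502 in Ser2P. In the unnumbered libraries, 1 member was at least 1.5-fold lower in that titled IAA+EGF by depth (0), and 0 were higher in that titled EGF at the start (1). The cause was not tested.

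Leaving out 1 library at a time, the Ser2P window ratio ran from 2.131 to 4.972 (2.983 as reported). Members losing an interior peak ran from 0 to 1 in Pol II and from 0 to 1 in Ser2P, those losing 3′ zone peaks in Tyr1P from 0 to 1, and those gaining them from 0 to 1 in Tyr1P and from 1 to 2 in Ser2P. Ser2P start peaks in all libraries ran from 2 to 6 members, and interior gains from 1 to 4. Lead peak calls ran from 1 to 2 in Pol II, 0 to 5 in Tyr1P and 3 to 6 in Ser2P, start background calls from 0 to 3 in Pol II and 2 to 6 in Ser2P, and 3′ background calls from 0 to 3 in Tyr1P. With fewer libraries required to hold a peak, more members enter a fit. With a replicate block the window ratios were 0.697, 0.792 and 3.246, and the start background call in Pol II fell to 0. Deviations of same-numbered libraries correlated at 0.006, −0.014 and 0.007 (Pol II, Tyr1P, Ser2P), so the numbers are not treated as pairs. Among the alternative values of counts and ratios, 228 stayed near the reported value and 45 moved. Precision is limited where stacks are small, as at the SPRY2 start in the numbered Pol II libraries (15 to 33 fragments).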
